A study of Mus musculus with 4 samples.

Results

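The hepcidins and the genes around them in iron regulation were examined in non-tumorous liver of mice with and without hepatocyte G9a. The genes were Hamp, Hamp2, Tfr2, Tfrc, Hfe, Slc40a1, Slc11a2, Fth1, Ftl1 and Tmprss6, each taken at every probe set that the array annotation assigns to that symbol alone. This gave 23 probe sets for 9 of the 10 genes, out of 45101 probe sets and 18194 genes named alone by a probe set. Ftl1, the ferritin light chain, had none of its own, because its 3 probe sets are shared with other genes, and no value is given for it. Of the 23 probe sets, 18 were called Present on at least 2 of the 4 arrays and could be tested, 13 of them on all 4. The remaining 5 were Present on 1 array (1 probe set) or on none (4 probe sets).

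The study set 2 WT mice (intact G9a) beside 2 G9aΔHep mice (G9aKO in the labels), with 1 array of liver RNA each. The G9aΔHep mice came from crossing G9aflox/flox mice with albumin-Cre (Alb-Cre) mice. The paper does not state whether its WT mice carried Cre. All were male, of C57BL/6 background and 30 weeks old. All had received the carcinogen diethylnitrosamine (DEN) at 25 mg/kg by intraperitoneal injection at 15 days of age and then 22 weekly injections of the hepatotoxin carbon tetrachloride (CCl4) at 0.5 ml/kg, so that no untreated liver stands beside them. Cre under the albumin promoter deletes floxed G9a, an H3K9 methyltransferase, in hepatocytes. The paper reported residual G9a protein in whole G9aΔHep liver and took it to come probably from other cells. Which other liver cells keep the gene was not tested here. In whole liver, a change in the number of cells of a type and a change in RNA per cell cannot be told apart.

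Hepcidin is a peptide hormone that hepatocytes secrete. It binds ferroportin (Slc40a1), the iron exporter of macrophages, enterocytes and hepatocytes, and has it degraded, so that less iron enters the blood. Its gene Hamp is driven by BMP6 from endothelium through BMP receptors and SMAD proteins, with HFE and transferrin receptor 2 (Tfr2) as sensors of loaded transferrin, and by IL-6 through STAT3, while the protease matriptase-2 (Tmprss6) cleaves the BMP co-receptor hemojuvelin and holds it down. Mice carry a duplicated gene, Hamp2, beside Hamp on chromosome 7.

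The letters just before the start sites of both hepcidin genes are shown because the pair lie side by side and yet differed in what was measured here. In the RefSeq windows of GRCm38.p6, both on the minus strand, the 250 bases before the start lie at chr7:30944030-30944279 for Hamp and at chr7:30924182-30924431 for Hamp2. Capitals mark the letters GGCGCC, the core of BMP response elements, and TTCNNNGAA, the pattern of STAT sites, wherever either was found on either strand; no capital letters overlap.
Hamp: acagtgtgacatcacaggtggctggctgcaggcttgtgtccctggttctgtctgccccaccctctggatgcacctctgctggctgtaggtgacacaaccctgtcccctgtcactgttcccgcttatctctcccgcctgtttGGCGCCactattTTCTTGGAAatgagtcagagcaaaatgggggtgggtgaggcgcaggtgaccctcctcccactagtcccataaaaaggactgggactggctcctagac
Hamp2: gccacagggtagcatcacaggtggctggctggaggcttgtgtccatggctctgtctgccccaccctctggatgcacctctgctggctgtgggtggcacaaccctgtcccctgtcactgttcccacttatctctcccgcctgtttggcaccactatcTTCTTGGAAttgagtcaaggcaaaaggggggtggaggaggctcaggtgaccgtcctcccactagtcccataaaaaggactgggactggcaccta
When aligned, 227 of 247 paired bases were identical (91.9%), with 20 mismatches and 6 gap positions. The STAT pattern started at -97 in Hamp and at -94 in Hamp2, counted from the start site, with the same letters in both. GGCGCC stood at -109 in Hamp and was not in the Hamp2 window. Neither window held the E-box CACGTG or the letters TATAAA. Of 32851 windows of this length in the table, 9.59% held GGCGCC, 7.02% TTCNNNGAA, 6.02% CACGTG and 12.4% TATAAA. Windows were given for 7 of the 10 genes (11 windows), and outside the hepcidins the searched letters occurred in a Tfrc window (GGCGCC at -89) and an Fth1 window (TATAAA at -124). These matches describe letters and not binding.

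Hamp2 rose in G9aΔHep liver. At its detected probe set (1436643_x_at) the signal was 3144 and 2759 in the WT livers and 15057 and 16069 in the G9aΔHep livers, Present on all 4 arrays. The groups lay far apart, with means of 2952 ± 272 and 15563 ± 716 (SD, n = 2 each). The fold change was 5.28 (95% interval 4.32 to 6.46), or 2.40 on the log2 scale (SE 0.12, adjusted p = 0.00485 by limma over 10351 genes), and only 1 gene had a smaller p. Hamp2 was the only gene of the 9 measured past the threshold, against 0.319% of all genes called higher and 0.0676% called lower. Without the mean-variance trend the adjusted p of Hamp2 was 0.114, and by the methods' t-test it was 0.491.

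The call rests on this probe set alone. Its suffix marks probe sets with probes that can match other sequences, and whether they match Hamp RNA was not tested. The other Hamp2 probe set (1456289_at) gave 10.4 and 10.02 in WT and 26.3 and 20.1 in G9aΔHep livers, Absent on all 4 arrays. These signals lie under the 95% quantile of Absent probe sets, 170.5 to 181.1 by array, and give no level.

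Hamp, which encodes the hormone itself, had signals of 37368 and 33963 in WT and 47705 and 40061 in G9aΔHep livers at its brighter probe set (1419196_at). Both G9aΔHep values exceeded both WT values. The fold of 1.23 (log2 difference 0.30, SE 0.12) had an interval that reached down to 0.01 on the log2 scale, and did not pass the adjusted threshold (adjusted p = 0.496, limma). At the other Hamp probe set (1419197_x_at), with 34343 and 29070 in WT and 43812 and 35774 in G9aΔHep livers, the log2 difference was 0.33 (SE 0.14, adjusted p = 0.539 over 17167 probe sets).

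The difference was thus larger for Hamp2 than for Hamp, which was also read within each array. The log2 ratio of the Hamp2 signal to the Hamp signal on the same array was -3.57 and -3.62 in WT and -1.66 and -1.32 in G9aΔHep livers. These ratios compare probe sets whose levels cannot be set against each other, so that only their difference between groups is read. That difference was 2.11 with the brighter Hamp probe set and 2.08 with the other, the groups did not overlap, and the exact two-sided permutation p was 0.333, the smallest that 2 against 2 arrays allow.

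**Figure D1:**
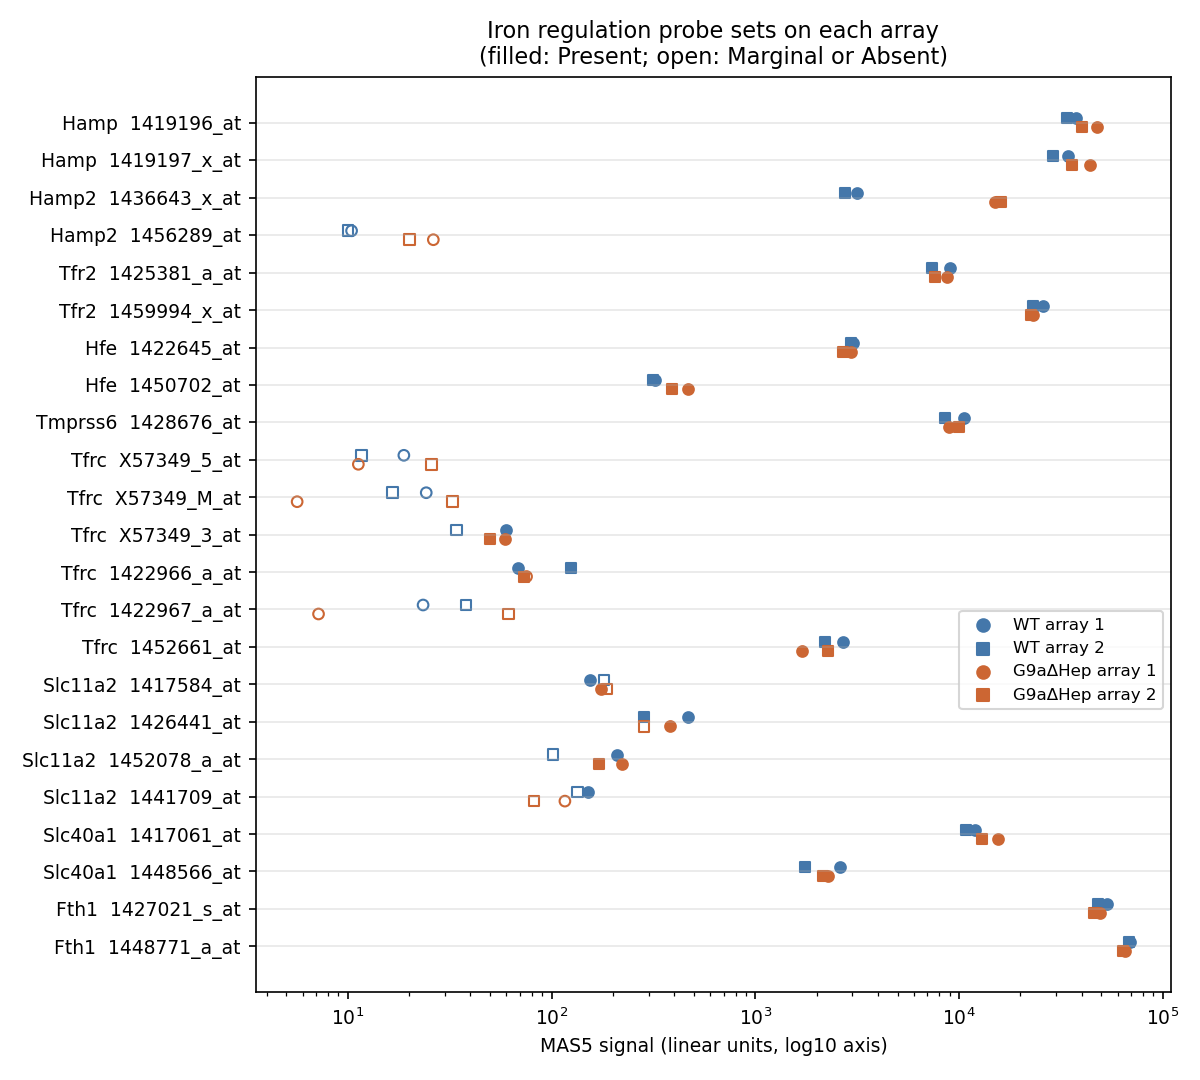
Deposited MAS5 signal (linear units on a log10 axis) of the 23 iron regulation probe sets, with 1 point for each of the 4 arrays. Filled points were called Present, and the 2 G9aΔHep points of Hamp2 at 1436643_x_at (15057 and 16069) stand apart from the WT points (3144 and 2759).

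The sensing genes upstream of hepcidin did not pass the test. Tfr2 gave 25718 and 23161 in WT and 23103 and 22438 in G9aΔHep livers at its brighter probe set (1459994_x_at), both G9aΔHep values just below the WT ones, with a log2 difference of -0.10 (SE 0.10, 95% interval -0.34 to 0.14). Its other probe set (1425381_a_at) overlapped, with 9078 and 7375 against 8763 and 7643 and a difference of 0.00 (SE 0.14).

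Hfe encodes an MHC class I-like protein that senses iron together with Tfr2, and its mutation causes hemochromatosis. Its brighter probe set (1422645_at) gave 3016 and 2960 in WT and 2965 and 2683 in G9aΔHep livers, which overlap (log2 difference -0.08, SE 0.12, adjusted p = 0.862). Its dimmer probe set (1450702_at) gave 323.4 and 314.9 in WT and 469.5 and 391.7 in G9aΔHep livers without overlap (0.43, SE 0.21, 95% interval -0.07 to 0.92, adjusted p = 0.580). The Hfe probe sets therefore had opposite signs, and neither passed.

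Tmprss6, with 1 probe set (1428676_at), gave 10536 and 8553 in WT and 8979 and 10043 in G9aΔHep livers. The group means were alike and the groups overlapped. The log2 difference was 0.0004 (SE 0.14), and its interval of -0.34 to 0.34 leaves room for a change of either sign.

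Slc40a1, the iron exporter that hepcidin acts on, had signals of 11951 and 10769 in WT and 15460 and 13004 in G9aΔHep livers at its brighter probe set (1417061_at). Both G9aΔHep values were higher (log2 difference 0.32, SE 0.13, adjusted p = 0.491, limma). At the other probe set (1448566_at) the groups overlapped, with 2596 and 1761 against 2268 and 2154 and a difference of 0.05 (SE 0.20).

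Tfrc, the transferrin receptor through which most cells take up iron, had signals of 2688 and 2207 in WT and 1697 and 2287 in G9aΔHep livers at its brightest probe set (1452661_at). The groups overlapped and the log2 difference was -0.31 (SE 0.19, 95% interval -0.78 to 0.16, adjusted p = 0.648). Of its other 5 probe sets, 3 are Affymetrix controls for the 5', middle and 3' parts of the transcript. All 5 gave signals of at most 124.5 and overlapped between the groups. The 2 of them that were tested had differences of -0.31 (SE 0.46) and 0.27 (SE 0.58).

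Slc11a2, the divalent metal transporter that moves iron out of endosomes, was dim at all 4 of its probe sets. At the brightest (1426441_at) it gave 466.9 and 283.0 in WT and 379.5 and 284.4 in G9aΔHep livers, the last of these Absent (log2 difference -0.15, SE 0.31, adjusted p = 0.909). At the 2 others that were tested the differences were 0.11 and 0.41, so that the sign depended on the probe set. The last probe set (1441709_at) was Present on 1 WT array only, with 151.8 and 134.4 in WT and 116.3 and 82.1 in G9aΔHep livers.

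Fth1, the ferritin heavy chain that oxidises and stores iron, was among the brightest signals. It gave 68803 and 68197 in WT and 65157 and 64043 in G9aΔHep livers (1448771_a_at), a narrow gap without overlap. The log2 difference was -0.08 (SE 0.08, 95% interval -0.28 to 0.11). At the other probe set (1427021_s_at) the values were 53121 and 48179 against 49192 and 45871, which overlap (-0.09, SE 0.10). The highest signals on these arrays were 91121 to 99523, and how far signals near the top are compressed was not tested.

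Over the 9 measured genes, 1 was called higher and 0 lower. At an unadjusted limma p under 0.05 the counts were 3 and 0 (Hamp2, Slc40a1 and Hamp), beside 5.92% of all genes higher and 4.1% lower, and by the methods' t-test 0 passed after adjustment and 2 before it (Hamp2 and Fth1), where 8.26% of all genes did the latter in either direction. The groups did not overlap for 3 genes higher in G9aΔHep liver and 2 lower, where 22.3% and 19.3% of all genes did so. The median log2 difference was -0.08 over the 9 genes and 0.02 over all genes tested. Among the 18 tested probe sets the Hamp2 probe set again was the only one called (2.40, adjusted p = 0.003), against 0.233% of all probe sets called higher and 0.0466% lower.

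**Figure D2:**
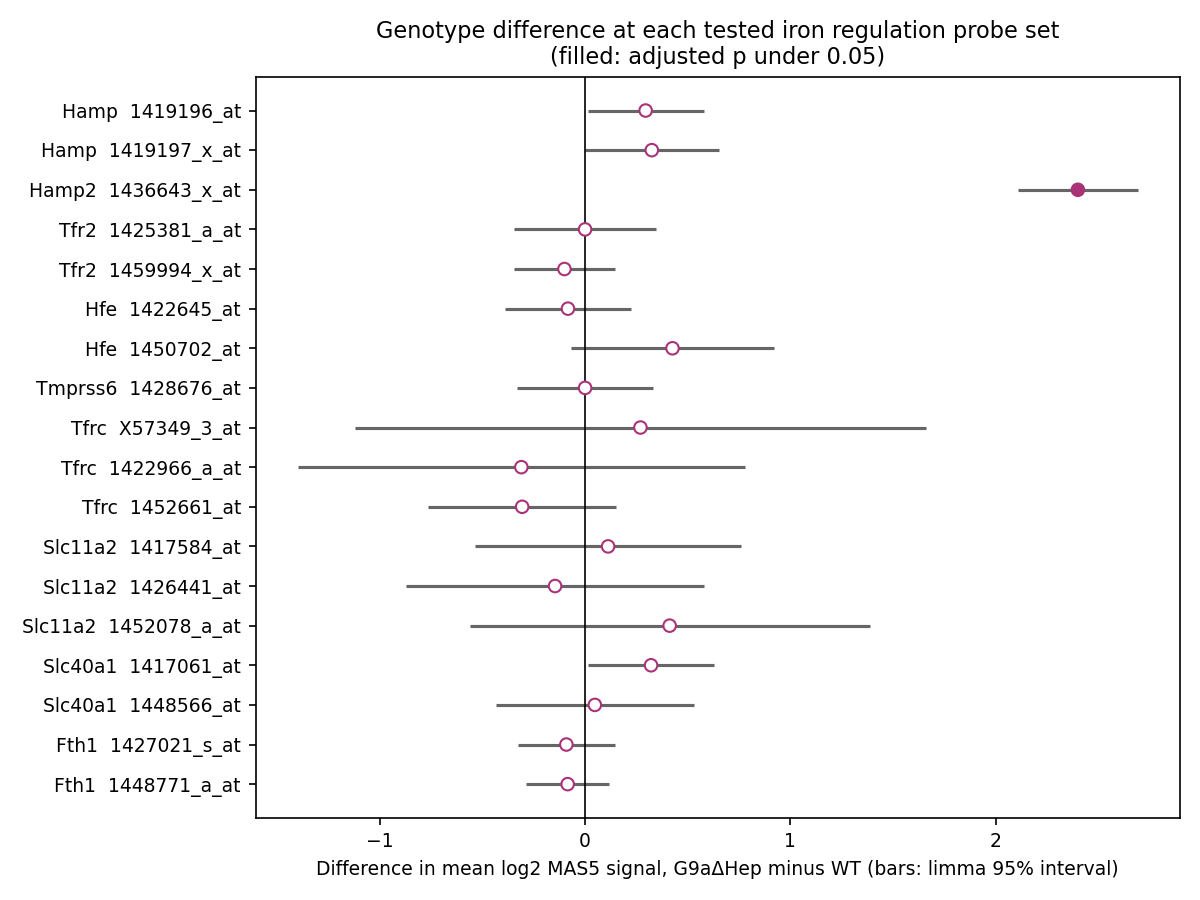
Difference in mean log2 signal (G9aΔHep minus WT, 2 arrays each) at the 18 tested probe sets, with limma 95% intervals as bars. The filled point, Hamp2 at 2.40, is the only one past the adjusted threshold, and the Hfe and Slc11a2 probe sets lie on both sides of 0.

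The patterns over the 4 arrays were set against those of all other tested genes by the distance between centred log2 signals, a description over 4 arrays. The genes nearest to Hamp were Txndc12 (distance 0.0199), Slc40a1 (0.0279), Rps6ka3 (0.0298), Dimt1 (0.0311) and Pipox (0.0393). Slc40a1, taken at its brighter probe set (1417061_at), was named for this closeness, as were the other genes, so the closeness is no separate result. Its centred values were -0.09, -0.24, 0.29 and 0.04 beside -0.08, -0.22, 0.27 and 0.02 for Hamp, the WT arrays first. At its other probe set (1448566_at) the signal was highest on the first WT array (2596, against 2268 and 2154 in G9aΔHep livers), unlike Hamp. The genes nearest to Hamp2 were Col4a5 (0.194), Slc8a1 (0.268), Nap1l3 (0.329), Slc30a8 (0.356) and Sqle (0.362). Their log2 differences of 2.07 to 2.37 follow from choosing genes by this distance.

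The genes on either side of the hepcidins on chromosome 7, in the order of RefSeq for GRCm38.p6, were not called. Of the 10 nearest tested genes, 5 on each side, 0 passed the threshold, where 0.319% of all genes were called higher and 0.0676% lower. At an unadjusted limma p under 0.05, 1 of them (Fxyd3) was higher, where 5.92% of all genes were. The log2 differences ran from -0.29 (Tmem147) to 0.68 (Fxyd3, SE 0.26, adjusted p = 0.484, limma). Usf2, which encodes a transcription factor and adjoins Hamp, had 1194 and 1018 in WT and 1017 and 1135 in G9aΔHep livers (-0.04, SE 0.16).

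The wider pathway was read from 9 lists with 128 genes, of which 110 were measured. None was called (0 of 110) in either direction by limma, 9 had an unadjusted p under 0.05 upward and 9 downward (5.92% and 4.1% of all genes), and by the methods' t-test 0 passed after adjustment and 6 before it (8.26% of all genes). Their median log2 difference was -0.03, and 51 of 110 lay above 0, where 53.4% of all genes did.

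The BMP and SMAD list, of genes in the main arm that drives hepcidin, had 16 of its 19 measured genes above 0 and a median of 0.19. Of all genes, 53.4% lay above 0. The list also holds inhibitors such as Smad6, so this count gives no direction of signalling. The median was 0.11 when the probe sets of a gene were averaged and 0.32 without the first WT array. Without the second WT array 12 of 19 lay above 0, with a median of 0.16. The groups did not overlap for 10 of the genes, all higher in G9aΔHep liver, where 22.3% of all genes did so. By limma 4 of the 19 had an unadjusted p under 0.05, all higher (5.92% of all genes). By the methods' t-test 0 of the 19 did (8.26% of all genes). Id1, a classic SMAD target, gave 523.8 and 966.2 in WT and 1751 and 1873 in G9aΔHep livers (log2 difference 1.35, SE 0.29, adjusted p = 0.1996). Its relatives Id3 (0.54, SE 0.17) and Id2 (0.48, SE 0.18) also did not overlap between the groups. Smad6, an inhibitory SMAD and like these 3 at an unadjusted p under 0.05, differed by 0.59; it and the ligands and co-receptor that follow were picked after the values were seen. Bmp6, the ligand, gave 181.8 and 160.1 in WT and 266.5 and 220.7 in G9aΔHep livers (0.51, SE 0.26, adjusted p = 0.574). It was Present on all 4 arrays, but the second WT signal lay under the 95% quantile of Absent probe sets there (174.9). Bmp2 (0.15, SE 0.20) and Hjv (0.12, SE 0.22), which encodes hemojuvelin, overlapped.

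The list of IL-6, STAT3 and liver factors, the other arm, had a median of 0.00 with 6 of 12 above 0. Socs3, a feedback inhibitor of STAT3, gave 743.4 and 875.4 in WT and 1937 and 1008 in G9aΔHep livers (0.79, SE 0.31, adjusted p = 0.491). Its difference was carried mostly by the first G9aΔHep array. Jak1 differed by -0.19 (SE 0.16) and Creb3l3, a hepatocyte transcription factor, by -0.14 (SE 0.10). Acute phase genes, some of which IL-6 drives alongside Hamp, had 5 of 17 above 0 and a median of -0.13. Which of the listed genes respond to IL-6 in these livers was not tested. Saa4 (-0.42, SE 0.11) and Saa3 (-0.72, SE 0.26) lay below 0 and Apcs (0.92, SE 0.29) above it, and the list's median ranged from -0.29 to 0.11 when 1 array was left out.

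Genes of iron uptake, carriers and oxidases had a median of 0.05 over 7 measured of 13 listed, and it ranged from -0.09 to 0.23 when 1 array was left out. Slc39a14, an importer of iron not bound to transferrin, gave 2024 and 2291 in WT and 2533 and 3263 in G9aΔHep livers (0.42, SE 0.17, adjusted p = 0.495). Steap4, a ferrireductase, differed by 0.34 and Slc39a8, another metal importer, by -0.24. The iron regulatory proteins, which bind the Tfrc and ferritin transcripts, and genes of ferritin turnover had 1 of 6 above 0 and a median of -0.15. The regulatory proteins Aco1 (-0.22, SE 0.14) and Ireb2 (-0.20, SE 0.13) and the iron chaperone Pcbp1 (-0.17, SE 0.12) had the smallest p. Each had both G9aΔHep values below both WT values, where 19.3% of all genes did so. Their adjusted p values by limma were 0.647, 0.670 and 0.680. For Aco1 the nearest values were 16987 in WT and 16924 in G9aΔHep livers.

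Genes of mitochondrial iron and iron-sulfur clusters had 2 of 15 above 0 and a median of -0.23, or -0.12 without the second G9aΔHep array. Glrx5, a glutaredoxin of cluster assembly, gave 12969 and 13504 in WT and 9259 and 10066 in G9aΔHep livers (-0.45, SE 0.10, adjusted p = 0.231). The cluster scaffold gene Iscu (-0.25, SE 0.10) and the assembly gene Isca1 (-0.54, SE 0.15) also had no overlap between the groups. In all, 6 of the 15 had both G9aΔHep values below both WT values, where 19.3% of all genes did so. Heme synthesis had 4 of 12 above 0 and a median of -0.19, with Fech, which inserts iron into heme, at -0.28 (SE 0.11), Tmem14c at -0.29 and Abcb6 at -0.34. Without the first G9aΔHep array this median was -0.01.

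Heme and hemoglobin clearance was mixed, with 8 of 14 above 0 and a median of 0.07. Hmox1, which breaks heme down and frees its iron, gave 399.5 and 426.4 in WT and 1036 and 600.3 in G9aΔHep livers (0.93, SE 0.28, adjusted p = 0.361). Blvrb, a biliverdin reductase, lay at -0.49 (SE 0.15) and the transporter gene Abcg2 at 0.55 (SE 0.18). The list of oxygen sensing and erythropoietin had a median of 0.01 over 8 genes, of either sign when 1 array was left out (-0.10 to 0.15), with Epas1 (0.22), Hif1a (-0.21) and Arnt (0.09) having the smallest p.

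**Figure D3:**
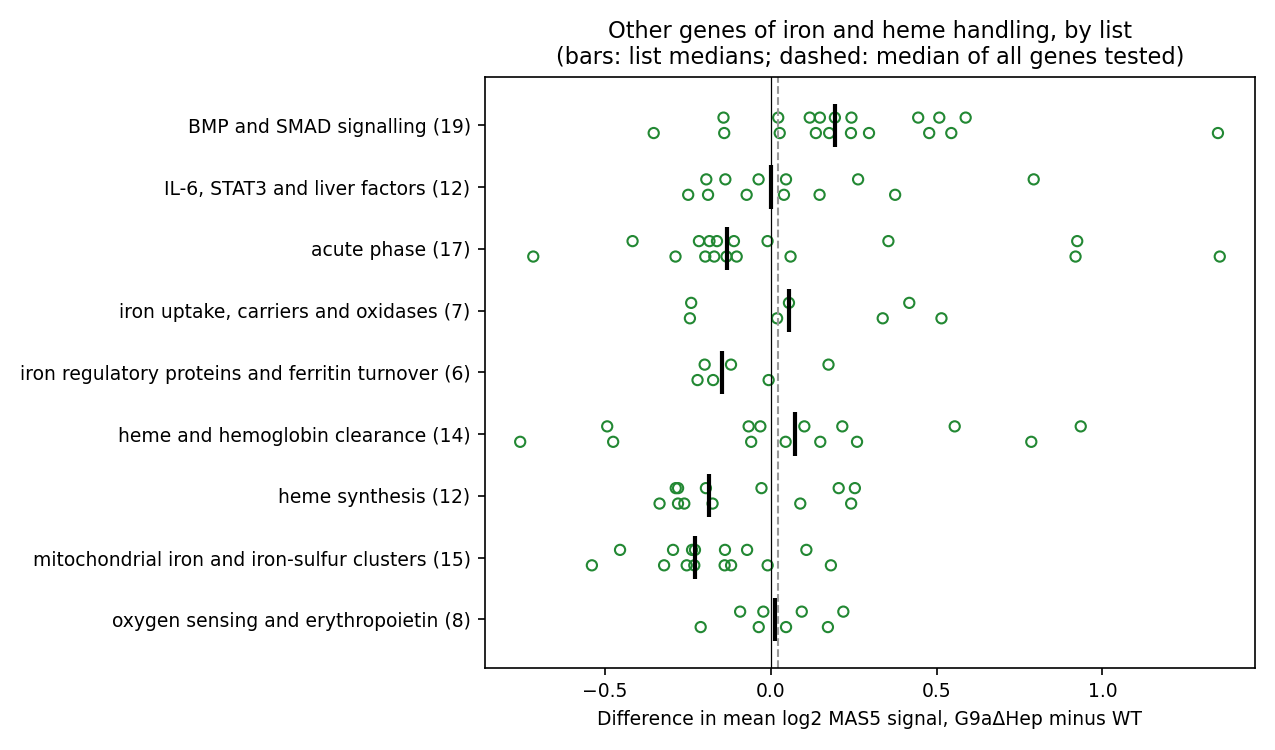
Difference in mean log2 signal (G9aΔHep minus WT) of the 110 measured genes in 9 lists, with 1 open circle a gene and the number measured in brackets. Black bars are list medians, from -0.23 for mitochondrial iron to 0.19 for BMP and SMAD signalling, and the dashed line is the median of all genes tested (0.02).

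The labelled tissue matched its markers. All 7 measured hepatocyte markers were Present on all 4 arrays, with a summed signal of 420222 to 447011 in WT and 391945 to 443728 in G9aΔHep livers. Macrophage and Kupffer cell markers, of cells that recycle iron and express Slc40a1 and Hmox1, summed to 27892 and 42155 in WT and 62121 and 40103 in G9aΔHep livers, and 9 of 9 had differences above 0 (median 0.46, from 0.09 to 0.70 with 1 array left out). Stellate and fibroblast markers summed to 3484 and 3701 in WT and 7101 and 3812 in G9aΔHep livers, with 6 of 6 above 0 (median 0.60, from 0.18 to 1.07 with 1 array left out). Of all genes, 53.4% lay above 0. No marker of either list was called, with smallest adjusted p values by limma of 0.480 (macrophage and Kupffer) and 0.198 (stellate and fibroblast). The groups did not overlap for 3 of the 9 and 4 of the 6 tested markers, all higher in G9aΔHep liver, where 22.3% of all genes did so. The first G9aΔHep array held the highest sum of both lists. It also held the highest Hamp, Slc40a1, Socs3 and Hmox1 signals, each at the brightest probe set. Of the WT arrays, the second had the higher sum of both lists and the higher Socs3 and Hmox1 signals. Hamp and Slc40a1 were higher on the first WT array. The Hamp2 signal was highest on the second G9aΔHep array, and without the first G9aΔHep array the log2 difference of Hamp2 was 2.45. The part of these cells in the differences of Hamp2 and the other genes was not tested.

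Sinusoidal endothelium, the source of Bmp6, summed to 9763 to 12107 in WT and 9872 to 10593 in G9aΔHep livers, which overlap. Of the first 2 markers listed, Stab2 differed by 0.05 (SE 0.19) and Lyve1 by -1.004 (SE 0.28, adjusted p = 0.320, limma). Over the 7 tested endothelial markers the median was -0.05, with 3 above 0. The groups did not overlap for 2 of them higher in G9aΔHep liver and 1 lower, where 22.3% and 19.3% of all genes did so. Of 5 erythroid markers with a probe set, 4 were Absent on all 4 arrays, Hba-a1 and Slc4a1 among them. Cholangiocyte sums were 381 to 407 in WT and 599 to 728 in G9aΔHep livers. Of the 4 cholangiocyte markers with a probe set only 1 could be tested, and Krt19 and Krt7 were each Present on 1 array. The tested marker, Sox9, overlapped between the groups (0.71, SE 0.47, adjusted p = 0.668, limma). Lymphocyte sums were 452 to 640 and 409 to 510, with Cd3e and Cd79a Absent throughout, and neutrophil sums 800 to 1256 and 379 to 2516. Ehmt2, which encodes G9a, was Present in the WT livers (640.4 and 492.5) and Absent in the G9aΔHep livers (174.1 and 163.7). Its signal was 3.33-fold higher in WT (log2 difference -1.73, SE 0.23, 95% interval -2.30 to -1.17, adjusted p = 0.063, limma). Both G9aΔHep signals lay under the 95% quantile of Absent probe sets on their arrays (176.8 and 181.1). The fold therefore gives no level of remaining Ehmt2 RNA. Whether its probes lie in the deleted exons was not determined here.

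**Figure D4:**
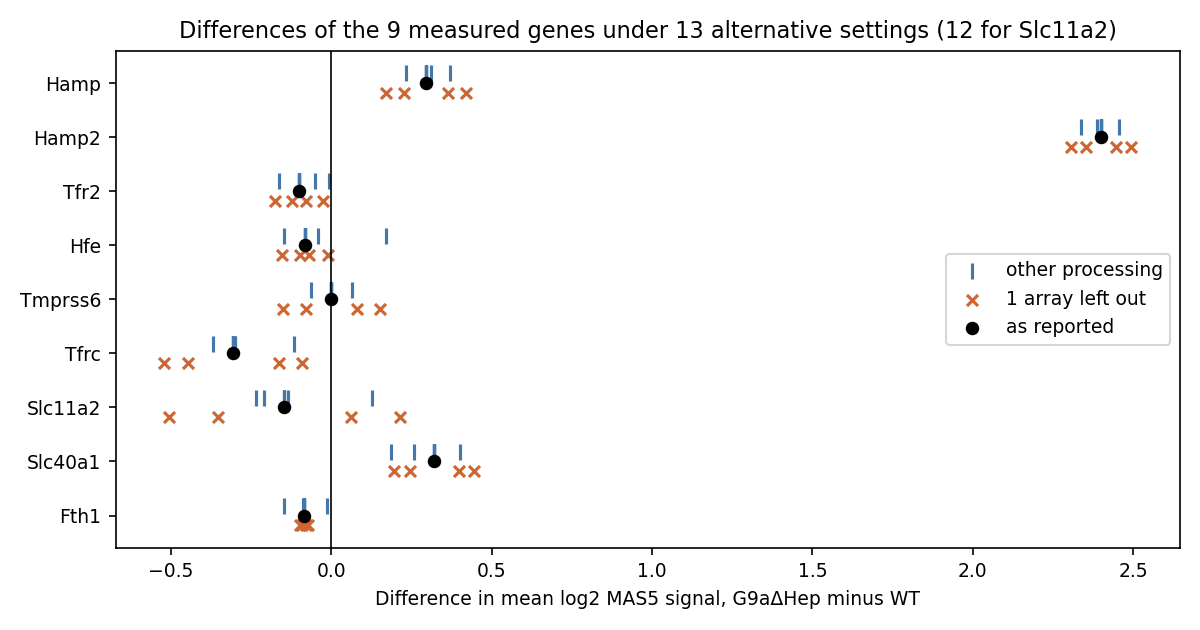
Difference in mean log2 signal (G9aΔHep minus WT) of the 9 measured genes as reported (black), under other processing (bars) and with 1 array left out (crosses). Hamp2 stays between 2.31 and 2.49, while Hfe, Tmprss6 and Slc11a2 fall on both sides of 0.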

How the data were processed

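RNA of 4 mouse livers, 2 WT and 2 G9aΔHep, was measured with 1 Affymetrix mouse whole-genome expression array each, and samples were grouped by the submitters' genotype labels. The labels give no batch, date or pairing, and p-values measure only the spread between these samples, which may be partly technical. The authors deposited MAS5 signals, an intensity on a linear scale that is background-corrected and scaled per array (2% trimmed mean 500.0 on every array), with a detection p-value and call for each probe set. No MAS5 version was found. The series matrix held the same signals (largest relative difference 5e-06).

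Genes were named through the array annotation. Of 45101 probe sets, 34958 named 1 gene, 932 several and 9211 none, and probe sets with several were not named. Control probe sets naming 1 gene (13) were kept, since 3 name Tfrc. Entrez identifiers matched RefSeq for 34754 probe sets, and 0 symbols changed.

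Log2 signals were compared with limma 3.58.1 in R 4.3.3 (lmFit, then eBayes with trend = TRUE for the mean-variance trend, no pseudocount, 2 residual and 4.02 prior degrees of freedom for genes, 4.61 for probe sets). A gene stood at its brightest probe set Present on at least 2 arrays, which left 10351 genes, and every such probe set, 17167 in all, was fitted separately. P-values were adjusted by Benjamini-Hochberg over all features, with a threshold of 0.05. The fit was checked on simulated data. The share of probe sets called Present was 41.3% to 43.9% by array, and 2 arrays a group limit the precision. Log2 differences are G9aΔHep minus WT.

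Members and lists were chosen with earlier results of these data known. All members were named, and in each list up to 4 genes past the threshold or else the 3 with the smallest p, with the 5 genes most like each hepcidin by Euclidean distance. Promoter windows came from RefSeq and were aligned with Biopython 1.88 (match 2, mismatch -1, gap open -5, gap extend -1). Alternatives were other scalings, detection filters, probe set rules and tests, a pseudocount of 32, and leaving out each array. Leaving out the control probe sets, and both other tests of the probe sets, were added after seeing the data.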

Additional observations from a re-analysis of the deposited data

How the results depend on the processing

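Hamp2 kept its direction in all 13 alternatives (2.31 to 2.49) and passed the threshold in 11, including each of the 4 that left out 1 array. It was lost without the mean-variance trend (2.40, adjusted p = 0.114) and by the methods' t-test (adjusted p = 0.491), where the members called higher fell from 1 to 0 and all genes called were 0 higher and 0 lower. All genes called numbered 33 higher and 7 lower as reported, 11 and 4 with no detection filter, 19 higher with only probe sets Present on all 4 arrays, and 8 to 54 higher and 0 to 17 lower with 1 array left out; the cause was not tested. Leaving out either WT array gave 8 and 0, the first G9aΔHep array 18 higher, and the second G9aΔHep array 54 and 17. In alternatives chosen after seeing the data, the 13 control probe sets that name 1 gene were left out: the counts stayed at 33 and 7 over all genes and 1 and 0 over the members, but without the first G9aΔHep array 9 genes were called higher in place of 18. No pathway gene was called under any alternative run for these lists. The count of member probe sets stayed at 1 higher and 0 lower under both scalings, the pseudocount, no detection filter and each left-out array, and fell to 0 higher without the mean-variance trend and by the methods' t-test, both also added after seeing the data.

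Hamp, Tfr2, Tfrc, Slc40a1 and Fth1 kept their signs in 13 of 13 alternatives and never passed. Tmprss6 changed sign with arrays centred on their medians (-0.0624) and lay between -0.15 and 0.15 with 1 array left out. Hfe (0.17) and Slc11a2 (0.13) changed sign when probe sets were averaged, and Slc11a2 lay between -0.51 and 0.22 with 1 array left out. Of 117 list medians, 104 stayed within 0.1 on the log2 scale of the reported one, a limit chosen for this purpose, and 13 moved further. The median of all genes was 0.02 as reported, -0.04 with arrays centred on their medians and 0.00 with quantile normalization. No paired analysis was possible because the labels carry no replicate numbers. Signals near or under 181.1, the highest 95% quantile of Absent probe sets, limit what the Slc11a2, Tfrc, Bmp6, Ehmt2 and dim Hamp2 probe sets show.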
